A study of Arabidopsis thaliana with 8 samples.

Results

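The ZAT and AZF genes of Arabidopsis thaliana described here are 9 loci: ZAT5 (AT2G28200), ZAT6 (AT5G04340), ZAT10 (AT1G27730, also STZ), ZAT11 (AT2G37430), ZAT12 (AT5G59820, also RHL41), ZAT18 (AT3G53600), AZF1 (AT5G67450), AZF2 (AT3G19580) and AZF3 (AT5G43170). They were found on the array by the RefSeq transcript of each probe, which gave 12 probes for the 9 genes, out of 43603 probes and 25410 named genes in all. Of the 9 genes, 8 had a probe that 4 or more of the 8 arrays read well above background, and were tested, together with all other genes that met this criterion, 19609 in total. ZAT18 did not meet it. Expression was measured in stems 10 cm long, on single-colour Agilent arrays, in 2 groups of 4 arrays. The first group, called transgenic here, carried the construct NST3pro:CEF2-VP16:HSP in the double mutant nst1-1 nst3-1. The second, called nst1 nst3, was that double mutant (nst1-1 nst3-1) without the construct. Both groups are of the Col-0 accession and lack working NST1 and NST3, the NAC factors that start secondary wall formation in fibers, so no array represents the wild type. The construct places an AP2/ERF factor, joined to the viral activation domain VP16, under the fiber-active NST3 promoter. The sample labels call the factor CEF2 and the design text calls it ERF035. RNA came from whole stems, so that fewer cells of a type and less RNA per cell cannot be told apart.

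ZAT and AZF proteins are transcription factors with a pair of zinc fingers and a short EAR motif, which recruits corepressors of the TOPLESS family and through them silences target genes. Their transcripts are known as early and short-lived responses to cold, salt, drought, wounding and reactive oxygen. Mitogen-activated protein kinases act upstream of several of them, and genes of the cold response, of metal handling and of antioxidant defence lie downstream.

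Values are log2 of the processed signal over the 75th percentile of the same array, so a value of 0 is the level of that percentile and a difference of 1 is a doubling. Values cannot go below -6.64, the floor of the scale. Levels of different probes cannot be set against each other. Groups were compared with limma across all 19609 genes, and a gene was called higher or lower at a Benjamini-Hochberg adjusted p under 0.05. Whether the 4 arrays of each genotype stand for separate plants is not in the labels. The p-values therefore reflect the spread among these samples alone, and that spread may be technical. The number of arrays limits the precision. ERF035 (AT3G60490) read 4.06, 4.05, 4.17 and 4.27 on the transgenic arrays, against -3.07, -2.38, -5.87 and -2.99 on the nst1 nst3 arrays, high on every transgenic array and low on every nst1 nst3 array, as labelled. The 4 transgenic arrays lay on 1 slide and the 4 nst1 nst3 arrays on another, so slide and genotype cannot be told apart. Among arrays of 1 group the correlation over all tested genes was 0.987 to 0.994 for transgenic and 0.953 to 0.987 for nst1 nst3 arrays.

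Transcripts of 7 of the 8 tested genes were lower in transgenic stems: ZAT6, ZAT10, ZAT11, ZAT12, AZF1, AZF2 and AZF3. The share of all tested genes that were lower was 24.8%. The falls ran from 1.93 log2 units for AZF1 to 3.74 for ZAT10, that is from 3.82-fold to 13.4-fold. In either direction 54.2% of all tested genes passed, so that a call by itself does not set the members apart. ZAT5 was the exception and was 2.03-fold higher, where 29.5% of all tested genes were higher. ZAT11 and AZF1 were above background on all nst1 nst3 arrays but not on all transgenic arrays, so that their entry into the test could rest on the group in which they are bright. Of the 6 genes above background on all 8 arrays, 5 fell and 1 rose. Among all 18176 genes that met this stricter criterion, 24.3% were lower and 30.0% higher. The median difference was -3.11 over the 8 genes and 0.03 over all tested genes. The first of these lies between ZAT6 (-2.997) and ZAT11 (-3.22), and the floor sets the ZAT11 value in part. Of all genes called, 54.3% were higher, and with scaling on spike-in RNA 20.8% were. The median difference of all genes was -0.40 with that scaling, against 0.03 with the 75th percentile.

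**Figure D1:**
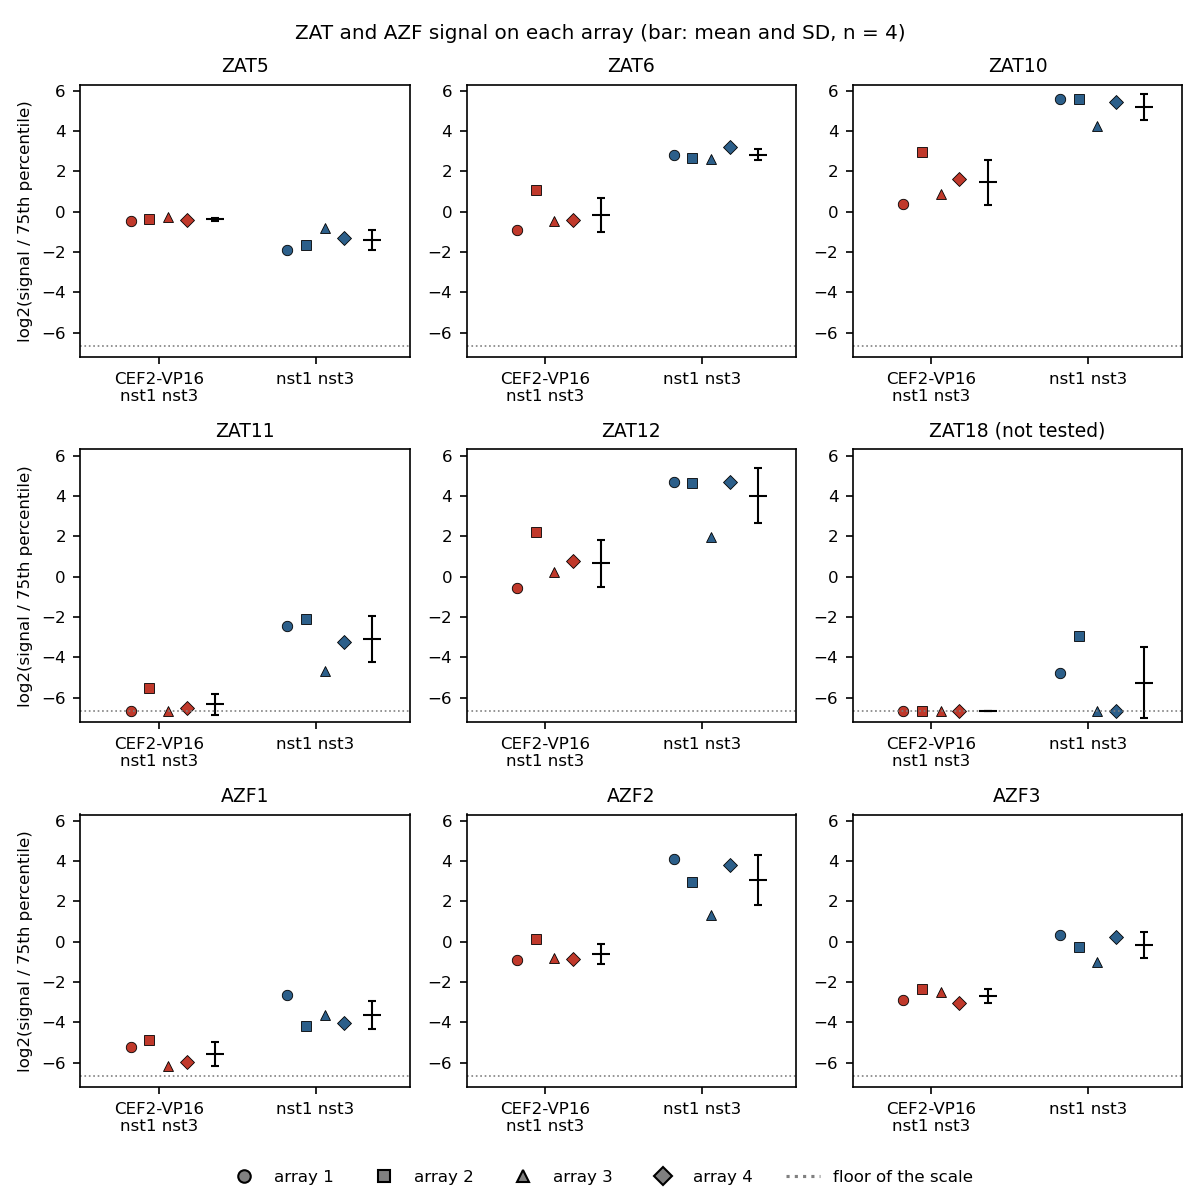
Scaled log2 signal (vertical axis; 0 is the 75th percentile of the array) for each of the 9 genes, with the 4 transgenic arrays in red on the left and the 4 nst1 nst3 arrays in blue on the right of each panel; symbols mark array numbers, the bar gives mean and SD, and the dotted line is the floor at -6.64. The groups are separate in 7 of the 8 tested genes, and in ZAT12 transgenic array 2 (2.20) lies above nst1 nst3 array 3 (1.97).

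ZAT10 and ZAT12 are the members best known as general stress repressors: ZAT10 was first described as a salt tolerance zinc finger, and ZAT12 acts in reactive oxygen and light stress signalling. ZAT10 read 0.39, 2.94, 0.89 and 1.62 on transgenic arrays 1 to 4, against 5.57, 5.59, 4.24 and 5.42 on nst1 nst3 arrays 1 to 4. Every transgenic array lay below every nst1 nst3 array, with a gap of 1.29 between transgenic array 2, the highest of its group, and nst1 nst3 array 3, the lowest of its group. On the linear scale the processed signal of ZAT10 was 4266 to 18030 units in transgenic and 62758 to 172177 units in nst1 nst3 stems, with no spot saturated. ZAT10 fell by 3.74 ± 0.56 log2 units (SE, n = 4 per group), or 13.4-fold (limma adjusted p = 0.000983).

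ZAT12 read -0.58, 2.20, 0.24 and 0.76 on the transgenic arrays and 4.70, 4.66, 1.97 and 4.68 on the nst1 nst3 arrays. Of the nst1 nst3 arrays, 1, 2 and 4 lay close together, array 3 lay far below them, and transgenic array 2 stood above it, so that the groups overlapped. ZAT12 fell by 3.35 ± 0.78 (SE, n = 4 per group), or 10.2-fold, with a limma adjusted p of 0.00760. Without nst1 nst3 array 3 it fell by 4.03. For ZAT12, permuting the arrays exactly in all 70 ways (two-sided) gave p = 0.0571. For each of the other 7 tested genes that exact test gave 0.0286, the smallest it can give. The groups did not overlap for those 7 genes, as for 50.7% of all tested genes.

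ZAT6, which takes part in phosphate homeostasis and in glutathione synthesis under cadmium, read -0.89, 1.08, -0.45 and -0.41 on the transgenic arrays, against 2.83, 2.67, 2.61 and 3.21 on the nst1 nst3 arrays. Here the nst1 nst3 arrays were close together, with an SD of 0.27, and nst1 nst3 array 3 did not stand apart from the other 3. Transgenic array 2 was again the highest of its group. ZAT6 fell by 2.997 ± 0.39 (SE, n = 4 per group), or 7.98-fold (limma adjusted p = 0.000545).

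The AZF genes code for zinc-finger repressors that respond to abscisic acid and osmotic stress, and AZF1 and AZF2 repress auxin-responsive growth genes under those conditions. AZF2 read -0.92, 0.13, -0.80 and -0.87 on the transgenic arrays and 4.09, 2.94, 1.34 and 3.79 on the nst1 nst3 arrays. The SD was 0.50 in transgenic and 1.23 in nst1 nst3 stems, where array 3 was the lowest and still lay above every transgenic array. AZF2 fell by 3.66 ± 0.58 (SE, n = 4 per group), or 12.6-fold (limma adjusted p = 0.00127).

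AZF3 read -2.88, -2.33, -2.49 and -3.04 on the transgenic arrays, against 0.35, -0.27, -1.02 and 0.25 on the nst1 nst3 arrays. It fell by 2.51 ± 0.31 (SE, n = 4 per group), or 5.71-fold, and had the smallest adjusted p among the 8 tested genes (limma adjusted p = 0.000431). The groups did not overlap, and their closest arrays were 1.31 apart. AZF1 was dim: it read -5.24, -4.87, -6.16 and -5.98 on the transgenic arrays, where 3 of 4 were well above background, and -2.62, -4.20, -3.64 and -4.05 on the nst1 nst3 arrays. In nst1 nst3 stems array 1 was the highest, and the closest arrays of the 2 groups were 0.67 apart. AZF1 fell by 1.93 ± 0.41 (SE, n = 4 per group), or 3.82-fold (limma adjusted p = 0.00501). With normexp background correction AZF1 fell by 1.13.

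AZF2 has 3 probes and AZF3 has 2, which gave a check within the array. The 3 AZF2 probes had differences of -3.66, -3.42 and -2.995, with limma adjusted p from 0.00136 to 0.00253 over the 31897 probes tested on their own. The probe at -3.42 was at the floor on 2 transgenic arrays, so the floor sets the size of its difference in part. On each AZF2 probe the nst1 nst3 arrays had the same order, with array 1 the highest, then 4, 2 and 3. The 2 AZF3 probes had differences of -2.51 and -2.20 (limma adjusted p = 0.000480 and 0.000784). The probes of a gene thus gave the same direction and the same call. They share the RNA of the same arrays and are not replicates.

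**Figure D2:**
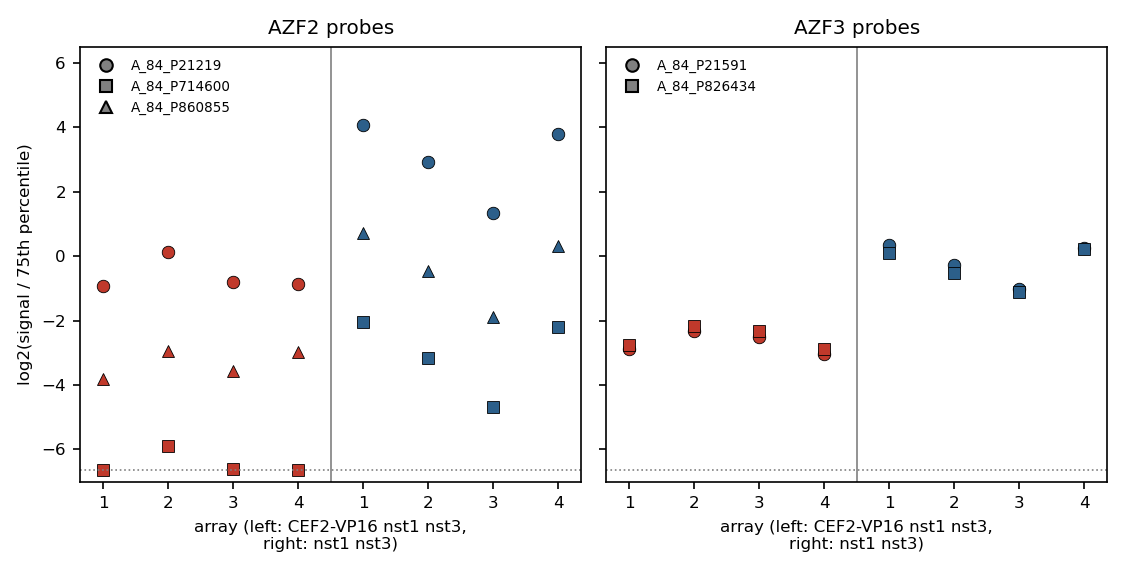
Scaled log2 signal (vertical axis; 0 is the 75th percentile of the array) for the 3 probes of AZF2 and the 2 probes of AZF3 on transgenic arrays 1 to 4 (red, left) and nst1 nst3 arrays 1 to 4 (blue, right). Symbols mark probes and the dotted line is the floor at -6.64; each of the 5 probes reads lower on every transgenic array than it does on any nst1 nst3 array.

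ZAT11, a nuclear repressor described in paraquat and nickel responses, read -6.64, -5.53, -6.64 and -6.50 on the transgenic arrays, against -2.47, -2.08, -4.66 and -3.22 on the nst1 nst3 arrays. It stood well above background on 2 transgenic arrays and on all nst1 nst3 arrays, and transgenic arrays 1 and 3 were at the floor. ZAT11 fell by 3.22 ± 0.55 (SE, n = 4 per group), or 9.34-fold (limma adjusted p = 0.00179). Its size depends on how dim signal is treated. The difference was -1.96 with normexp background correction, -3.83 when computed from the authors' value table and -3.85 with the floor at 0.001 of the 75th percentile.

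ZAT18, described in drought tolerance, was seen above background on no transgenic array and on nst1 nst3 arrays 1 and 2. It was at the floor of -6.64 on every transgenic array, against -4.75, -2.95, -6.64 and -6.64 on the nst1 nst3 arrays. The other 2 nst1 nst3 arrays were thus as low as the transgenic ones. No fold is given for ZAT18, since 4 transgenic and 2 nst1 nst3 arrays gave no measured level. It did not pass when genes were tested without a filter on dim probes, where the difference was -1.40 ± 0.86 (limma adjusted p = 0.267).

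ZAT5, a relative of the others with few described functions, went the other way. It read -0.46, -0.38, -0.27 and -0.42 on the transgenic arrays and -1.89, -1.64, -0.79 and -1.30 on the nst1 nst3 arrays. The lowest transgenic array stood 0.33 above the highest nst1 nst3 array, which was array 3. The transgenic SD of 0.079 was the smallest of any tested member, and the nst1 nst3 SD was 0.48. ZAT5 rose by 1.02 ± 0.22 (SE, n = 4 per group), or 2.03-fold (limma adjusted p = 0.00511). When arrays were scaled on spike-in RNA the difference was 0.57 and did not pass (limma adjusted p = 0.0788), whereas the other 7 fell by 2.38 to 4.19.

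**Figure D3:**
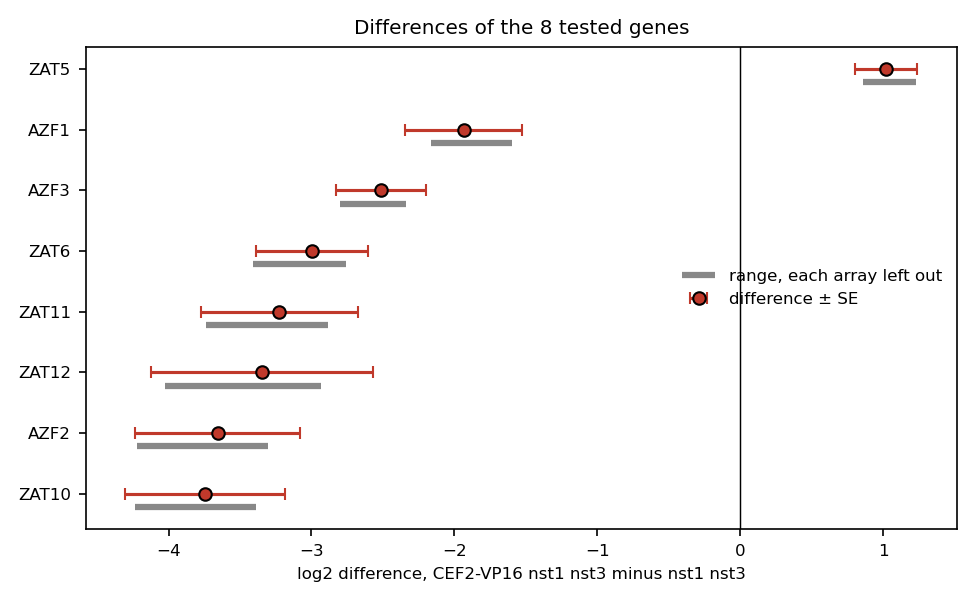
Log2 difference, transgenic minus nst1 nst3 (horizontal axis), with its moderated SE for the 8 tested genes, and below each point the range of the difference when each of the 8 arrays was left out in turn (grey bar). ZAT5 lies at 1.02 and the other 7 genes lie between -3.74 and -1.93, and no grey bar reaches 0.

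The 95% interval of the ZAT5 difference ran from 0.52 to 1.53. Those of the 7 falls all overlapped one another, with -5.03 to -2.45 for ZAT10 at one end and -2.88 to -0.99 for AZF1 at the other. Differences between members were not tested. Ordered by size among the falls of all 19609 genes, ZAT10 stood at place 154, AZF2 at 167, ZAT12 at 204, ZAT6 at 295, AZF3 at 435 and AZF1 at 742. ZAT11 is given no place, since the floor sets the size of its fall. A fall of at least 4-fold that passed the test was seen for 6 of the 8 genes, AZF1 lying just under it, and for 3.48% of all tested genes. The 6 include ZAT11, whose entry into the test could rest on the nst1 nst3 arrays, where it is bright. The ZAT11 difference was -1.96 with normexp background correction, short of 4-fold.

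**Figure D4:**
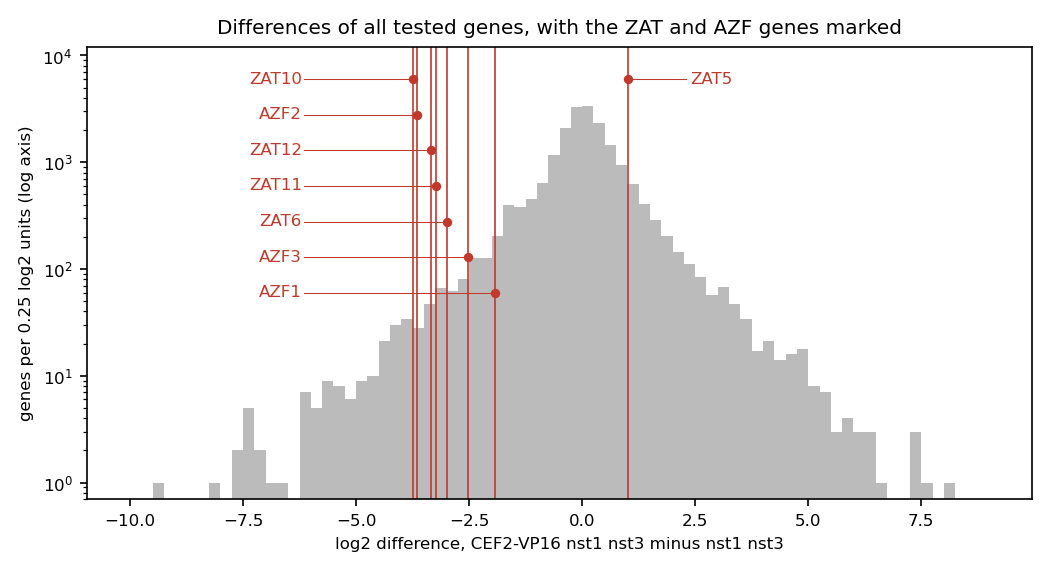
Number of genes per 0.25 log2 units of difference (vertical axis, log scale) against the log2 difference, transgenic minus nst1 nst3 (horizontal axis), over all 19609 tested genes, with the 8 tested members marked in red. The 7 falling members lie in the left flank, short of the largest falls, and ZAT5 lies in the right shoulder.

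The arrays of a group did not read alike for these genes. The SD of a member ran from 0.079 to 1.17 in transgenic and from 0.27 to 1.36 in nst1 nst3 stems. It was above the median SD of all genes, 0.13 in transgenic and 0.21 in nst1 nst3 stems, for 7 and 8 of the 8 members. Transgenic array 2 was the highest of its group for 7 of the 8 members, with ZAT5 the exception, against 24.6% of all tested genes and 42.1% of the genes that were lower. Its median deviation from the group mean was 0.77 over the 8 members. Transgenic array 1 was the lowest for 6 members, in ZAT11 tied with array 3 at the floor, against 34.3% of all tested genes and 34.8% of the genes that were lower.

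In the nst1 nst3 group array 3 was the lowest for 6 of the 8 members, against 24.6% of all tested genes and 30.7% of the genes that were lower. Its median deviation was -0.91, and it reached -2.03 for ZAT12. ZAT5 read highest on that array and AZF1 stood at its group's mean there. With nst1 nst3 array 3 and transgenic array 2 both left out, the same 7 genes were lower and ZAT5 higher. The differences were then -4.56 for ZAT10, -4.54 for ZAT12, -4.47 for AZF2 and -4.01 for ZAT11, the last with 2 of the 3 remaining transgenic arrays at the floor. This pair of arrays was chosen after seeing the data.

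**Figure D5:**
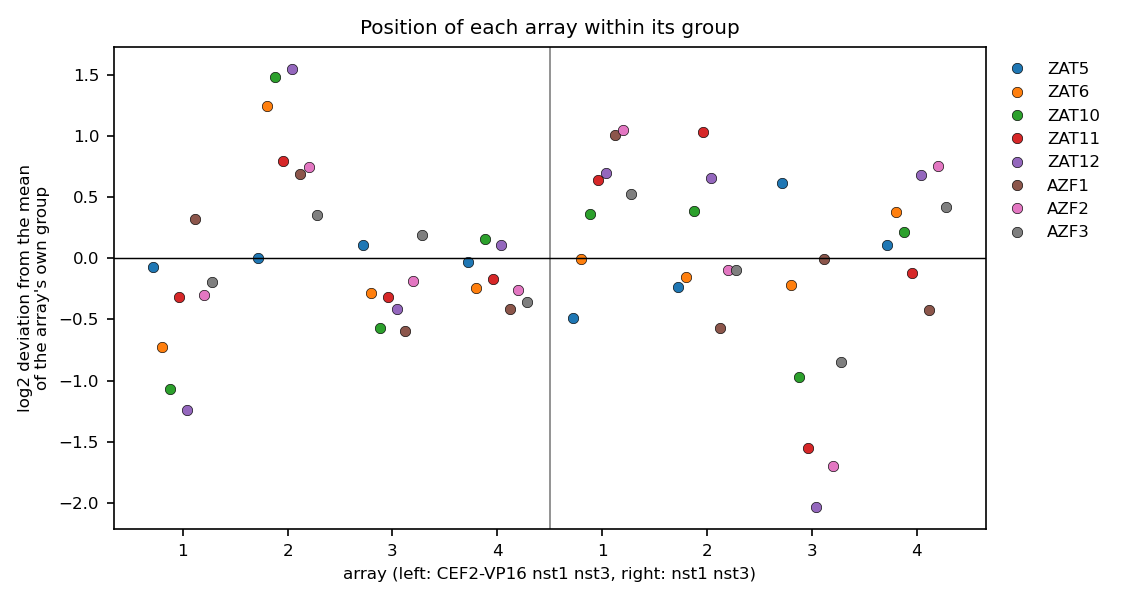
Deviation of each array from the mean of its own group in log2 units (vertical axis) for the 8 tested members (colours), with transgenic arrays 1 to 4 left and nst1 nst3 arrays 1 to 4 right of the grey line. Transgenic array 2 is high for 7 members, up to 1.55 for ZAT12, and nst1 nst3 array 3 is low for most, down to -2.03 for ZAT12.

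The genes whose levels correlated best with the mean of the 8 members were ERF11, CML37, CML38, CAF1b and NHL3. Pearson's r over the 8 arrays was 0.999 for ERF11 (AT1G28370, an ERF repressor with an EAR motif), 0.998 for CML37 (AT5G42380) and 0.997 for CML38 (AT1G76650), both calmodulin-like. It was 0.997 for CAF1b (AT5G22250, a deadenylase of mRNA) and 0.997 for NHL3 (AT5G06320, an NDR1/HIN1-like protein). These r describe 8 arrays that fall into 2 groups and share slides, and 628 of 19592 genes reached 0.95. Since r was taken across both groups, such genes would be lower in transgenic stems by the way they were chosen. All 5 were, and their limma adjusted p (0.000691 to 0.00148) is not a separate result. The differences were -6.12 ± 0.85 for ERF11, -7.24 ± 1.01 for CML37 and -5.26 ± 0.74 for CML38. They were -3.99 ± 0.65 for CAF1b and -2.39 ± 0.33 for NHL3 (SE, n = 4 per group).

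Other zinc-finger genes of the same C1-2i kind did not move as a block. All 13 listed genes are on the array, and 5 of them were above background on no array: DAZ1, DAZ2, AT3G46070, AT3G10470 and AT5G61470. Of the 8 tested, 2 were higher, 3 lower and 3 called in neither direction, with a median of -0.31. Of the 3 lower genes, 1 was at the floor on 3 of the 4 transgenic arrays and above background on 2. Its difference was -0.23 (limma adjusted p = 0.0472), so that its call rests on the floor in part. Over all tested genes 29.5% were higher and 24.8% lower. The largest differences were -5.25 ± 0.84 for AT3G46080 and -4.89 ± 0.92 for ZAT7 (AT3G46090), and AT5G03510 rose by 0.59 ± 0.13 (SE, n = 4 per group). AT3G46080 read -6.10, -5.58, -6.64 and -5.75 on the transgenic arrays and 0.78, -0.97, -3.32 and 0.46 on the nst1 nst3 arrays, with array 3 again the lowest. ZAT7 read -5.74, -5.14, -6.06 and -5.87 on the transgenic arrays and 0.67, -0.69, -3.81 and 0.56 on the nst1 nst3 arrays, in the same order within nst1 nst3 as AT3G46080. These are neighbouring, closely related genes, and signal of one read by the probe of the other cannot be told apart here.

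Upstream, kinase genes of the mitogen-activated protein kinase cascade fell in part. Of 9 listed genes 5 were lower, 1 higher and 3 in neither direction, with a median of -1.90. The shares over all tested genes were 24.8% lower and 29.5% higher. MPK3, a kinase that acts on ZAT10, read -0.12, 0.66, 0.07 and 0.21 on the transgenic arrays and 3.28, 2.92, 2.84 and 2.75 on the nst1 nst3 arrays, and fell by 2.74 ± 0.19. MKK5 and MKK4, the kinases that activate MPK3 and MPK6, had differences of -2.28 ± 0.26 and -2.19 ± 0.17 (SE, n = 4 per group). For these 3 genes every transgenic array lay below every nst1 nst3 array, and limma adjusted p ran from 5.15e-05 to 0.000283. The groups did not overlap for 50.7% of all tested genes. MPK6 itself averaged 0.74 ± 0.10 in transgenic and 0.72 ± 0.09 in nst1 nst3 stems (SD, n = 4 each) and did not pass (limma adjusted p = 0.882).

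Among the listed corepressors of EAR motif proteins, which include histone deacetylases, the differences were smaller. Of 8 genes 4 were lower, none was higher and 4 were called in neither direction, with a median of -0.26. Among all tested genes 24.8% were lower and 29.5% higher. The 3 largest differences were -1.28 ± 0.17 for the TOPLESS relative TPR3, -0.57 ± 0.09 for TPR4 and -0.37 ± 0.08 for TOPLESS itself (TPL) (SE, n = 4 per group).

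Enzymes that make or remove reactive oxygen were divided. Of 15 listed genes 14 were tested, 2 were higher, 4 lower and 8 in neither direction, with a median of 0.0011. The shares over all tested genes were 29.5% higher and 24.8% lower. The NADPH oxidase genes RBOHD and RBOHF, whose products make superoxide at the cell surface, had differences of -3.25 ± 0.31 and -1.74 ± 0.16, and the catalase gene CAT2 fell by 1.297 ± 0.20 (SE, n = 4 per group). RBOHD read -0.190, 0.041, -0.144 and -0.0041 on the transgenic arrays, against 3.95, 3.22, 2.28 and 3.26 on the nst1 nst3 arrays. The transgenic arrays were nearly alike, and nst1 nst3 array 3 was the lowest of its group but far above them.

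Genes reported downstream of ZAT and AZF proteins went in both directions. Of 9 listed genes 8 were tested, 2 were higher, 3 lower and 3 in neither direction, with a median of 0.12. Among all tested genes 29.5% were higher and 24.8% lower. RD29A, a dehydration and cold gene whose promoter ZAT10 represses in transient assays, read 4.52, 3.74, 4.44 and 4.34 on the transgenic arrays, against 0.0015, 0.71, -0.93 and 0.35 on the nst1 nst3 arrays. It rose by 4.23 ± 0.35, while the cold regulators CBF2 and CBF1 had differences of -3.79 ± 0.80 and -3.07 ± 0.94 (SE, n = 4 per group; limma adjusted p = 0.0241 for CBF1). CBF1 was at the floor on 3 of the 4 transgenic arrays and above background on 2, and CBF2 was at the floor on 1, so that the sizes of these differences depend on the floor. CBF3, their neighbour, read -0.93 ± 0.41 in transgenic and -1.07 ± 1.18 in nst1 nst3 stems (SD, n = 4 each) and did not pass (limma adjusted p = 0.840). MPK6 and CBF3 were named after their values were seen.

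Markers of stem tissues were also unequal between the groups. Beside their counts stand the shares over all tested genes, 29.5% higher and 24.8% lower. Xylem markers were higher for 5 of 5, with a summed level of 42.6 to 50.3 times the 75th percentile in transgenic and 20.6 to 39.5 in nst1 nst3 stems. Epidermis markers were higher for 4 of 5, led by CER1 at 1.94 ± 0.53 (SE), with sums of 57.0 to 82.3 in transgenic and 9.77 to 41.8 in nst1 nst3 stems. CER1, the brightest of them, makes up most of these sums. Differences of the other epidermis markers ran from 0.08 to 0.87, so the sums do not show a like change in all of them. Green tissue markers were higher for 4 of 4, with sums of 849 to 1161 in transgenic and 647 to 917 in nst1 nst3 stems. Phloem markers were higher for 2 and lower for 1 of 4, with sums of 29.1 to 36.1 in transgenic and 26.1 to 29.1 in nst1 nst3 stems. The floral genes AP3 and AG were above background on no array, while PI was above it on all 8 and did not pass (limma adjusted p = 0.129). These marker counts and sums are with scaling on the 75th percentile. Scaling on spike-in RNA moved the differences of all genes by a median of -0.45. With the 75th percentile the green tissue differences ran from 0.44 to 0.61 and the xylem differences from 0.49 to 1.32. The smaller of these rises thus depend on the scaling. The part of these tissues in the ZAT and AZF differences was not tested.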

How the data were processed

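Stem RNA (200 ng per array) was hybridised to 8 single-colour Agilent arrays of the 44k format, 4 per genotype. The deposited scanner files hold the processed signal intensity, which Agilent Feature Extraction had already corrected for background. Its version is 11.5.1.1 per the file headers and 9.1.3.1 per the submitters' processing notes. The authors' deposited value table holds the natural log of that signal minus a constant per group, 7.39 for nst1 nst3 and 7.15 for transgenic arrays. This was found by setting its columns against the scanner values. Its column medians ran from -1.23 to -0.84 for transgenic and from -1.26 to -1.05 for nst1 nst3 arrays, and the sources used here do not give why the constants differ.

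From the intensities, each array was divided by its 75th percentile (2344 to 3642 units), floored at 0.01 of it and log2-transformed. Of 43603 probes, 30289 to 32382 per array were well above background. Transcript accessions matched 34348 probes to 25410 loci of the RefSeq gene table, and 9255 matched none. A gene was tested where a probe was well above background on at least 4 arrays, and its brightest probe stood for it. Groups were compared with limma 3.58.1 in R 4.3.3, with Benjamini-Hochberg adjustment over 19609 genes, after the procedure was tested on simulated data. In the simulated data few genes changed and noise was independent between arrays. That test therefore does not cover effects shared by arrays or changes in many genes. All 9 member genes are named. From each other list up to 3 genes that passed, those with the largest differences, are named, as are the 5 genes most like the members by Pearson's r. The members and lists were chosen with earlier results of these data known. Alternatives covered background correction, scaling, filter, floor, probe choice, model and left-out arrays. The normexp alternative used the median spot signal. Promoter and protein sequences were not analysed here.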

Additional observations from a re-analysis of the deposited data

Results flagged for a closer look

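In 4 of 18 groups of 4 arrays, 1 array stood far from the other 3. Chance does so in about 1 in 20 independent groups, but these groups share arrays and some hold values at the floor, so that rate cannot be set against the count. ZAT11 read -5.53 on transgenic array 2, and the nearest transgenic array read -6.50, but arrays 1 and 3 were at the floor of -6.64, which sets how far array 2 appears to stand apart. AZF2 read 0.128 on transgenic array 2, and the nearest transgenic array read -0.804. ZAT10 read 4.24 on nst1 nst3 array 3, and the nearest nst1 nst3 array read 5.42. ZAT12 read 1.97 on nst1 nst3 array 3, and the nearest nst1 nst3 array read 4.66.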

How the results depend on the processing

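The calls of the 7 lower genes held in every alternative that tested them and in all 8 fits that left out 1 array. ZAT5 stayed higher except with spike-in scaling, where its difference was 0.57 and 0 of the 8 members were called higher. That scaling called 2062 genes higher and 7842 lower, against 5776 and 4858 with the 75th percentile, and the cause was not tested. Leaving out 1 array, the differences ran from -4.24 to -3.39 for ZAT10, from -4.22 to -3.31 for AZF2, from -4.03 to -2.94 for ZAT12, from -3.74 to -2.88 for ZAT11, from -3.41 to -2.76 for ZAT6, from -2.80 to -2.34 for AZF3, from -2.16 to -1.60 for AZF1 and from 0.86 to 1.23 for ZAT5. Without nst1 nst3 arrays 2 and 3 together, the differences were -4.55 for AZF2 and -4.04 for ZAT12. Whether replicate numbers pair the arrays is not in the labels. Same-numbered arrays had correlations of -0.04, -0.20, 0.16 and -0.40 in their deviations from the group mean. These cannot settle it, since the deviations within a group are tied to one another. With the replicate number as a block, 7 members were lower and 1 higher, and 8619 genes were called in place of 10634. Dim signal limits ZAT11, ZAT18, AZF1 and CBF1. The floor sets in part the size of the ZAT11, CBF1, CBF2 and AT3G46080 differences, and that of the AZF2 probe at -3.42.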
